A study of Homo sapiens with 4 samples.

Results

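Homologous recombination rebuilds a broken chromosome by copying an intact sister DNA, and the Fanconi anemia pathway unhooks DNA crosslinks and hands the resulting breaks to recombination. The genes of both pathways were followed here in LN229, an established human glioblastoma cell line. The 37 genes were chosen by name, and all 37 have a row among the 27694 genes of the deposited table. The tested group was LN229 cells given 100 nM UM-164, an inhibitor of c-Src and p38, for 24 h (2 libraries), and its control was LN229 cells given the vehicle, DMSO, for 24 h (2 libraries). No other allele or agent is named for either group, and neither the labels nor the methods say whether replicate libraries were made from separate cultures. The p-values therefore rest on the variation among the 4 libraries, and that variation may be only technical.

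Recombination starts when nucleases trim the broken end to a single strand. A filament of recombinase then forms on that strand with the help of the BRCA proteins and finds the matching sequence. In the Fanconi pathway a multi-subunit core complex, with the ubiquitin-conjugating enzyme UBE2T, attaches ubiquitin to the FANCD2 and FANCI pair, which then recruits nucleases. Both pathways act mainly while DNA is being copied, and in cycling cells many of their genes are transcribed most strongly around S phase, partly through E2F factors.

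No gene of the 37 passed the test for a difference between UM-164 and vehicle libraries. Expression was given as FPKM, the fragments of a gene relative to its transcript length and to all mapped fragments. The 11516 genes that averaged at least 1 FPKM over the 4 libraries were compared as log2(FPKM + 0.5) with limma, and p-values were adjusted over all 11516 by the Benjamini-Hochberg method. The pseudocount makes fold changes of low genes smaller than the ratio of FPKM. Of the 37 genes 30 entered this test, and BARD1 entered it only through its level in vehicle libraries. At an adjusted p under 0.05, 0 of the 30 were higher and 0 lower in UM-164 libraries, against 0.452% and 0.860% of all tested genes. Adding a minimum size of 1 for the log2 fold change left 0 members, against 0.339% higher and 0.425% lower of all tested genes. At an unadjusted p under 0.05 from limma, 0 were higher and 9 were lower (background 9.47% and 10.6%). The 9 became 4 without UM-164 replicate 1, without UM-164 replicate 2 or without vehicle replicate 2, and stayed 9 without vehicle replicate 1. Both UM-164 libraries lay above both vehicle libraries in 4 of the 30 and below both in 18 of the 30 (background 27.7% and 25.5%), and 23 had a log2 fold change below 0 and 7 above 0 (background 48.1% and 51.9%). BARD1 is counted among the 9, the 18 and the 23. The median log2 fold change of the 30 was -0.22, against 0.01 over all tested genes, and over all 37 the median log2 difference was -0.17. A p that misses the threshold does not show that a level was the same in both groups. In data simulated from the fitted variances with 200 genes changed, the adjusted p passed for 0% of changes of 0.5 in log2 size. It passed for 38.9% of changes of 1 and 89.4% of changes of 2, so in that setting the test mostly missed changes of the size seen here. An unadjusted p under 0.05 from limma was reached by 72.5% of the changes of 0.5. The adjusted rates depend on how many genes change, which is not known for these data. In RNA of whole cultures, fewer cells in a phase of the cell cycle cannot be told apart from less RNA per cell.

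The RefSeq promoters of 5 members are shown because they belong to the 3 genes with the smallest p (UBE2T, RAD54L and BARD1), to the one member with an E2F match among those lower at an unadjusted p under 0.05 (FANCA), and to a gene with higher values in UM-164 libraries (FANCF). Each runs from 250 bases before the annotated start to 50 after it on GRCh38.p14, 5′ to 3′ on the gene's strand. They lie at chr1:202341887-202342186 on the minus strand (UBE2T), chr1:46247438-46247737 on the plus strand (RAD54L, the upstream of its 2 starts), chr2:214809634-214809933 on the minus strand (BARD1), chr16:89816598-89816897 on the minus strand (FANCA) and chr11:22625774-22626073 on the minus strand (FANCF). Capitals mark matches on either strand to the E2F letters TTTCCCGC, TTTCGCGC, TTTGCCGC or TTTGGCGC, to the letters TTTGAA of the cell cycle homology region (CHR), and to the CCAAT box.
UBE2T: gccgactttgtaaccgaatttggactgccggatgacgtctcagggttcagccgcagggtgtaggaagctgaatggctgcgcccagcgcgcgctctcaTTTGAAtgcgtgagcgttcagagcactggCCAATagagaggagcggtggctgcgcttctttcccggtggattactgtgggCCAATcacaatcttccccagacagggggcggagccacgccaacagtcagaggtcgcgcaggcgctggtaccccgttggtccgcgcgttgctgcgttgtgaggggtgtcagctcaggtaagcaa
RAD54L: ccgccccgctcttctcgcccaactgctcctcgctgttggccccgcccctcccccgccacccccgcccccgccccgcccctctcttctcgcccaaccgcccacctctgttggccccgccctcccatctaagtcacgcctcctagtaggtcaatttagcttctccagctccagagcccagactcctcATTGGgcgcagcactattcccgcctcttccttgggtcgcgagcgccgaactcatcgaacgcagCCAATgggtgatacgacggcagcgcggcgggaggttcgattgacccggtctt
BARD1: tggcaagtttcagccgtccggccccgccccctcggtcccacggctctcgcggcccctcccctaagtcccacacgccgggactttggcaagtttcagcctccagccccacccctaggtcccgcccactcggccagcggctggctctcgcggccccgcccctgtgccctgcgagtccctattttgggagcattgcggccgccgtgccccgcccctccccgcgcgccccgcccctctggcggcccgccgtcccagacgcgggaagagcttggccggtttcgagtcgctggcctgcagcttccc
FANCA: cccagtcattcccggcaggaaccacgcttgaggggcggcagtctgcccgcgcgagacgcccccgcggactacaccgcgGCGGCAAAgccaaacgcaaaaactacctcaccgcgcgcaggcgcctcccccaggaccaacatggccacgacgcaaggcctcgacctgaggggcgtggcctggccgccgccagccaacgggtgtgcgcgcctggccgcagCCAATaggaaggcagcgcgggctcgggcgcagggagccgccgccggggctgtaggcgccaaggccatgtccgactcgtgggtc
FANCF: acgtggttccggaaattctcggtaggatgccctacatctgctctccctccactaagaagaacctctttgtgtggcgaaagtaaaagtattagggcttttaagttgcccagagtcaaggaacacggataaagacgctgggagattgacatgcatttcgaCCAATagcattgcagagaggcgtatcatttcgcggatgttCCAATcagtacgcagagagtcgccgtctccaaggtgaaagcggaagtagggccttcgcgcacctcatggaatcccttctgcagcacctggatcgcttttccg
UBE2T holds 1 CHR and 2 CCAAT matches, RAD54L 2 CCAAT matches, FANCA 1 E2F and 1 CCAAT match, FANCF 2 CCAAT matches and BARD1 none of these letters.

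Promoter windows were found for 34 of the 37 genes. An E2F match was present in 5 of the 34 (14.7%), namely EXO1, FANCA, FANCC, FANCD2 and XRCC2, against 3.99% of the 27305 genes with a window. The CCAAT box was present in 16 of the 34 (47.1%), against 39.7% of all genes, and TTTGAA in 4 (11.8%), against 18.2%. Among the 8 members with a window that were lower at an unadjusted p under 0.05, 1 had an E2F match, against 4 of the other 26. The 27305 genes were not filtered for expression or gene type, so they are a set unlike the members. A gene with several windows counted if any of them matched. These are letter matches in a window and were not tested against the expression values.

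**Figure D1:**
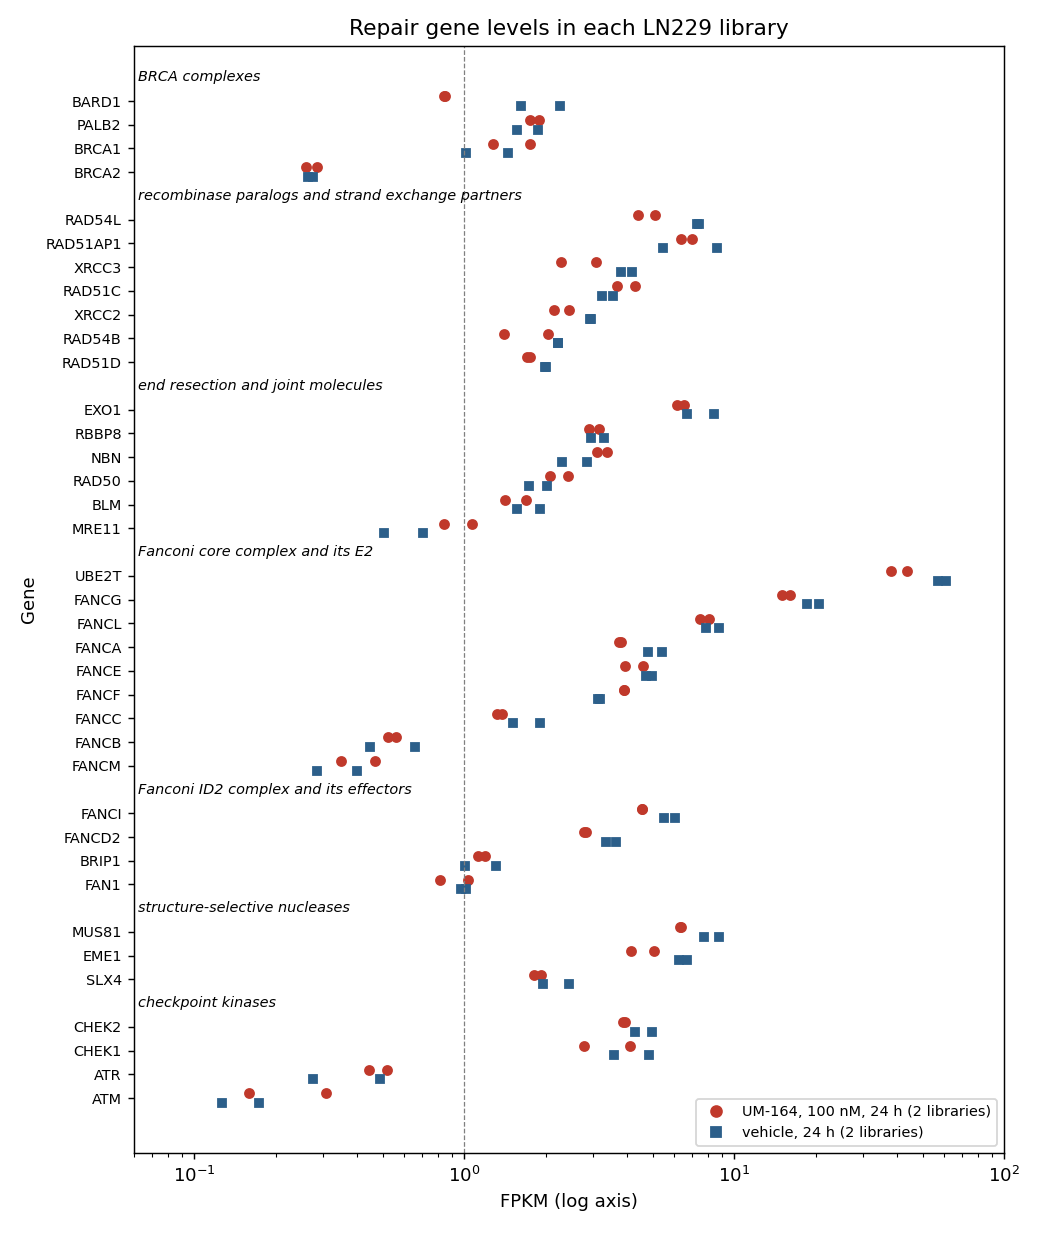
FPKM of each of the 37 genes in each library (log axis), grouped by role, with circles for the 2 UM-164 libraries, squares for the 2 vehicle libraries and a dashed line at 1 FPKM. UBE2T had the highest level of the 37, with 38.0 and 43.7 FPKM in UM-164 libraries against 60.9 and 56.9 FPKM in vehicle libraries, and ATM the lowest in vehicle libraries.

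Levels spread widely within the pathway. UBE2T stood highest in vehicle libraries, at a mean of 58.9 FPKM, followed by the core complex gene FANCG at 19.6 FPKM, while BRCA2, at 0.269 FPKM, and ATM, at 0.150 FPKM, stood lowest. The summed FPKM of the 37 genes was 152 and 157 in UM-164 libraries, against 189 and 194 in vehicle libraries. Without UBE2T the sums were 114 and 113 in UM-164 libraries, against 128 and 137 in vehicle libraries. The sums of the groups thus stayed apart, but the median level of the tested members overlapped between groups. On the log2 scale of the test that median was 1.96 and 1.92 in UM-164 libraries, against 1.93 and 2.03 in vehicle libraries. FPKM keeps no read counts and the depth behind a value is unknown. The most common smallest step among low values of genes with 1 transcript agreed between libraries within 1.11 times, and only 27.4% to 28.9% of those values lay within 0.05 steps of a whole step (10% by chance), so reads were not recovered.

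In the BRCA complexes the values of the partners differed. BARD1 is the obligate partner of BRCA1 in a ubiquitin ligase that promotes recombination. BARD1 (ENSG00000138376) had 0.841 and 0.849 FPKM in UM-164 libraries, against 1.62 and 2.26 FPKM in vehicle libraries, so the groups did not overlap. The mean differed from that of vehicle by -56.4%, and limma gave a log2 fold change of -0.85 ± 0.20 (SE) with adjusted p = 0.114. BARD1 entered the test only through its level in vehicle libraries, so its direction is not independent of the filter. BRCA1 (ENSG00000012048) had 1.28 and 1.75 FPKM in UM-164 libraries, against 1.02 and 1.45 FPKM in vehicle libraries. Its groups overlapped, and limma gave a log2 fold change of 0.22 (95% interval -0.35 to 0.78) with adjusted p = 0.621. PALB2, which bridges BRCA1 and BRCA2, had 1.76 and 1.89 FPKM in UM-164 libraries, against 1.57 and 1.87 FPKM in vehicle libraries, with a log2 fold change of 0.07. BRCA2, which loads the recombinase, was under the filter, at 0.259 and 0.285 FPKM in UM-164 libraries and 0.264 and 0.275 FPKM in vehicle libraries.

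The ratio of the FPKM of BARD1 to that of BRCA1 within a library was 0.657 and 0.486 in UM-164 libraries, against 1.59 and 1.56 in vehicle libraries. Such a ratio does not depend on the factor by which a library was scaled. BARD1 was thus above BRCA1 in both vehicle libraries and below it in both UM-164 libraries, a log2 difference of the ratio of -1.48, with an SD of 0.31 between UM-164 libraries and 0.02 between vehicle libraries (n = 2 each). With 2 libraries against 2 a two-sided exact permutation test cannot give a p below 0.33, and the ratio was chosen after the values were seen. BARD1 is annotated by GENCODE v29 at chr2:214725646-214809711 (GRCh38) and shares none of its exon bases with another gene. BRCA1 has 20 transcripts in the deposited table and BARD1 has 8, and neither the labels nor the methods say how reads were divided among transcripts.

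**Figure D2:**
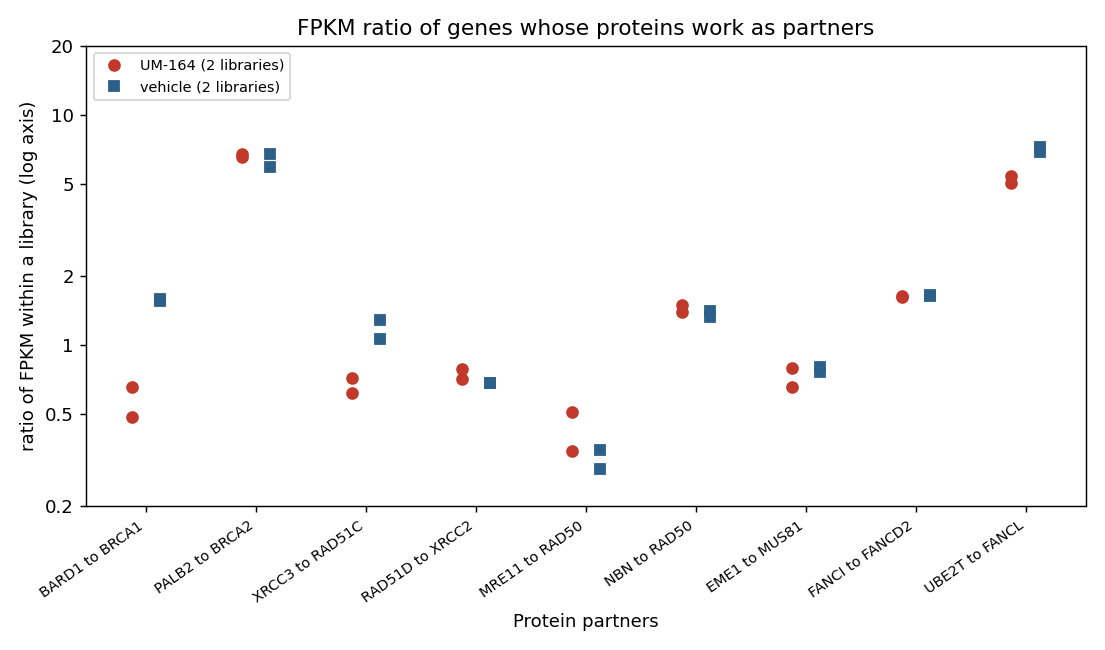
Ratio of FPKM within each library (log axis) for 9 pairs of genes whose proteins bind each other or act together, with circles for the 2 UM-164 libraries and squares for the 2 vehicle libraries. The ratio of BARD1 to BRCA1 was 0.657 and 0.486 in UM-164 libraries against 1.59 and 1.56 in vehicle libraries, and the ratio of FANCI to FANCD2 was 1.64 and 1.61 against 1.63 and 1.65.

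Among the 9 partner pairs, the ratio was lower in both UM-164 libraries than in both vehicle libraries in 3, higher in 1 and overlapping in 5. For the FPKM of single genes, 25.5% of all tested genes were lower in this way and 27.7% higher. No share was computed over other pairs of genes, so these counts do not set the partner pairs apart. XRCC3 and RAD51C form one of the small complexes of recombinase paralogs, and the ratio of XRCC3 to RAD51C was 0.617 and 0.717 in UM-164 libraries, against 1.28 and 1.07 in vehicle libraries. UBE2T works with FANCL, the ubiquitin ligase subunit of the core complex, and the ratio of UBE2T to FANCL was 5.08 and 5.41 in UM-164 libraries, against 6.95 and 7.26 in vehicle libraries. The ratio of RAD51D to XRCC2, which meet in another paralog complex, was 0.716 and 0.790 in UM-164 libraries, against 0.683 and 0.682 in vehicle libraries. The pairs PALB2 and BRCA2, MRE11 and RAD50, NBN and RAD50, and EME1 and MUS81 overlapped between groups. FANCI and FANCD2 kept nearly one ratio, at 1.64 and 1.61 in UM-164 libraries and 1.63 and 1.65 in vehicle libraries, a log2 difference of -0.014.

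The recombinase paralogs and the proteins that remodel the filament had 7 tested genes, of which 5 were below vehicle in both UM-164 libraries and 1 above (background 25.5% below and 27.7% above of all tested genes). RAD54L (ENSG00000085999), a DNA translocase that drives strand exchange, had 4.40 and 5.07 FPKM in UM-164 libraries, against 7.42 and 7.27 FPKM in vehicle libraries. The vehicle libraries nearly coincided and both were above the UM-164 libraries. The mean differed by -35.6%, and limma gave a log2 fold change of -0.59 ± 0.12 (SE) with adjusted p = 0.0949. XRCC3 had 2.28 and 3.07 FPKM in UM-164 libraries, against 4.17 and 3.80 FPKM in vehicle libraries, and limma gave -0.51 ± 0.17 (log2 fold change, SE) with adjusted p = 0.204. XRCC3 is uncertain, since 76.7% of its exon bases lie opposite exons of KLC1 and neither the labels nor the methods say whether counting used strand. KLC1 itself had a log2 fold change of -0.03. RAD54L lies opposite LRRC41 over 25.1% of its exon bases, and LRRC41 had a log2 fold change of 0.06.

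XRCC2, another paralog, had 2.45 and 2.15 FPKM in UM-164 libraries, against 2.91 and 2.95 FPKM in vehicle libraries. RAD54B, a relative of RAD54L, had 2.04 and 1.40 FPKM in UM-164 libraries, against 2.22 and 2.23 FPKM in vehicle libraries, and shares 59.1% of its exon bases with FSBP on the same strand. The log2 fold changes of XRCC2 and RAD54B were -0.29 and -0.31, with adjusted p = 0.316 and 0.425 from limma. FSBP, under the filter, went the other way, with 0.852 and 0.943 FPKM in UM-164 libraries, against 0.298 and 0.472 FPKM in vehicle libraries. How reads of shared exons were assigned is not stated, so RAD54B is uncertain. RAD51D had a log2 fold change of -0.17 and also lay below vehicle in both libraries. It shares 8.87% of its exon bases with RAD51L3-RFFL on the same strand. RAD51C was the one of this group above vehicle in both, at 3.69 and 4.29 FPKM in UM-164 libraries, against 3.25 and 3.56 FPKM in vehicle libraries, a log2 fold change of 0.20 (95% interval -0.15 to 0.55). RAD51AP1, which binds the recombinase and DNA, had 6.96 and 6.34 FPKM in UM-164 libraries, between the 5.45 and 8.63 FPKM of the vehicle libraries.

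Of the 5 tested genes that trim DNA ends or take apart joined molecules, 2 had a log2 fold change above 0 and 3 below 0. MRE11, RAD50 and NBN encode the complex that first binds a break and recruits the kinase ATM. NBN had 3.11 and 3.39 FPKM in UM-164 libraries, against 2.31 and 2.84 FPKM in vehicle libraries. RAD50 had 2.08 and 2.43 FPKM in UM-164 libraries, against 1.74 and 2.02 FPKM in vehicle libraries, and shares 79.7% of its exon bases with a clone-named gene, AC116366.3, on the same strand. Their log2 fold changes were 0.29 and 0.21, with adjusted p = 0.359 and 0.513 from limma. MRE11, under the filter, had 1.07 and 0.842 FPKM in UM-164 libraries, against 0.505 and 0.705 FPKM in vehicle libraries. Each of the 3 genes thus lay above vehicle in both UM-164 libraries, as did 27.7% of all tested genes. None of these differences passed, and with no filter on low values limma gave MRE11 a log2 fold change of 0.40 with adjusted p = 0.594.

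EXO1, a nuclease that extends the trimming, had 6.53 and 6.16 FPKM in UM-164 libraries, against 6.69 and 8.44 FPKM in vehicle libraries, and limma gave -0.23 (log2 fold change) with adjusted p = 0.433. RBBP8, which encodes the resection factor CtIP, had 2.90 and 3.17 FPKM in UM-164 libraries, against 2.94 and 3.29 FPKM in vehicle libraries. Its log2 fold change was -0.03, with a 95% interval of -0.38 to 0.31. BLM, a helicase that dissolves joined DNA molecules, had a log2 fold change of -0.12 and overlapping groups.

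**Figure D3:**
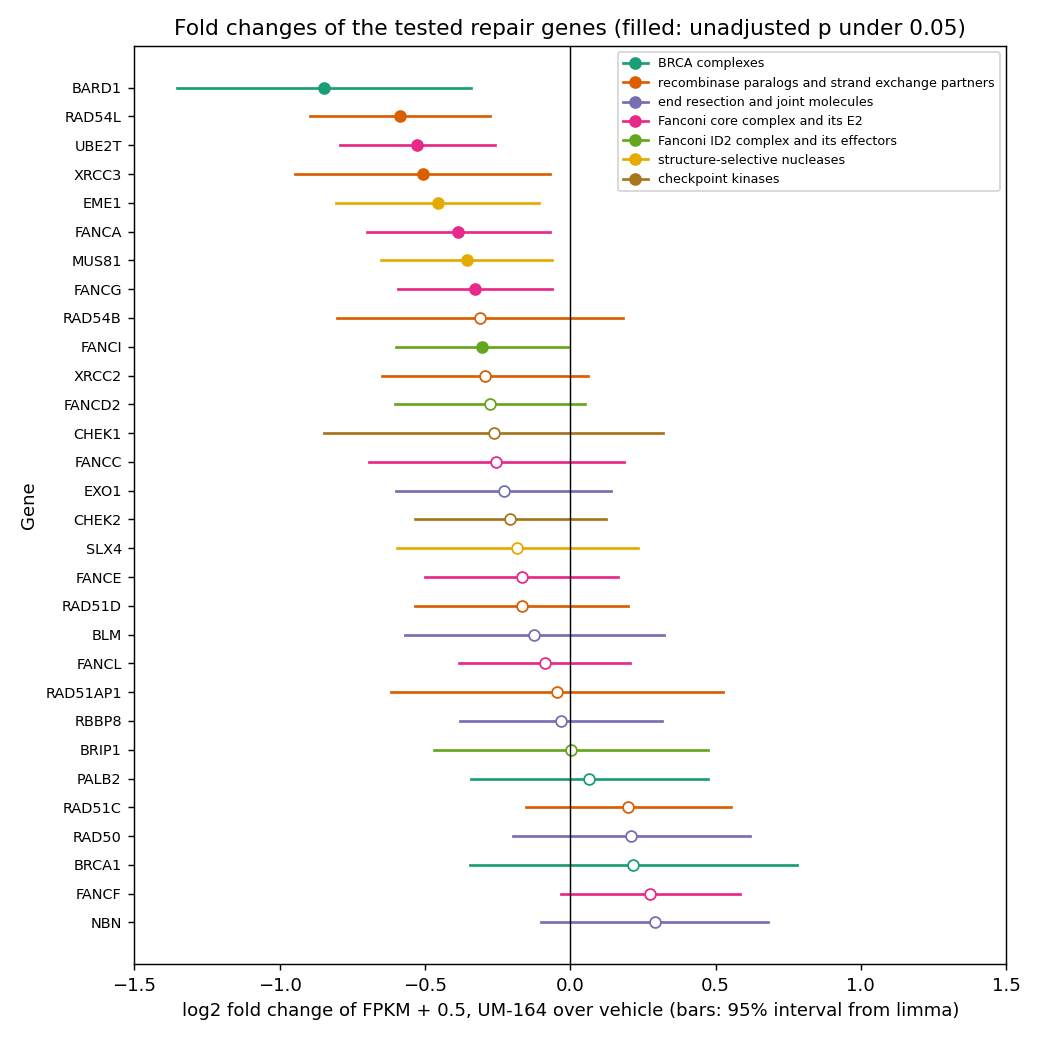
Log2 fold change of FPKM + 0.5 in UM-164 over vehicle libraries for the 30 tested genes, coloured by role and sorted, with 95% intervals from limma and filled circles at an unadjusted p under 0.05. The fold changes ran from -0.85 for BARD1 to 0.29 for NBN, and the 9 filled circles all lie below 0. BARD1 entered the test only through its level in vehicle libraries.

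The Fanconi core complex and its ubiquitin-conjugating enzyme had 7 tested genes, of which 5 were below vehicle in both UM-164 libraries and 1 above, beside the same 25.5% and 27.7%. UBE2T (ENSG00000077152) is annotated by GENCODE v29 at chr1:202331657-202341980 (GRCh38) and shares no exon bases with another gene. It had 38.0 and 43.7 FPKM in UM-164 libraries, against 60.9 and 56.9 FPKM in vehicle libraries. The mean differed by -30.7%, and limma gave a log2 fold change of -0.53 ± 0.10 (SE) with adjusted p = 0.0872, the smallest of the 30 tested members. FANCG, a scaffold of the core complex, had 16.1 and 15.0 FPKM in UM-164 libraries, against 20.7 and 18.6 FPKM in vehicle libraries. FANCA, the largest subunit of the same subcomplex, had 3.74 and 3.81 FPKM in UM-164 libraries, against 4.80 and 5.38 FPKM in vehicle libraries. Their log2 fold changes were -0.33 and -0.39, with adjusted p = 0.186 and 0.187 from limma. FANCA lies opposite ZNF276 over 23.6% of its exon bases, and ZNF276 had a log2 fold change of 0.12.

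FANCF, a single-exon adaptor of the core complex, stood on the other side. It had 3.92 and 3.91 FPKM in UM-164 libraries, against 3.12 and 3.18 FPKM in vehicle libraries, and limma gave 0.28 ± 0.12 (log2 fold change, SE) with adjusted p = 0.285. It lies opposite GAS2 over 11.3% of its exon bases. FANCC and FANCE had log2 fold changes of -0.25 and -0.17 and were below vehicle in both UM-164 libraries, while FANCL had one of -0.09 and overlapped between groups. FANCL lies opposite VRK2 over 19.7% of its exon bases. FANCM, a translocase that anchors the core complex to DNA, and FANCB were under the filter. FANCM had 0.465 and 0.350 FPKM in UM-164 libraries, against 0.400 and 0.284 FPKM in vehicle libraries. FANCB had 0.521 and 0.558 FPKM in UM-164 libraries, against 0.446 and 0.654 FPKM in vehicle libraries, and both genes overlapped between groups.

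FANCI and FANCD2, the pair that receives ubiquitin, differed from vehicle by nearly the same amount. FANCI had 4.56 and 4.57 FPKM in UM-164 libraries, against 5.49 and 6.02 FPKM in vehicle libraries. FANCD2 had 2.78 and 2.83 FPKM in UM-164 libraries, against 3.36 and 3.65 FPKM in vehicle libraries. Neither gene overlapped between groups, and the log2 fold changes were -0.30 and -0.28, with adjusted p = 0.241 and 0.308 from limma. BRIP1, a helicase that binds BRCA1, had 1.19 and 1.12 FPKM in UM-164 libraries, against 1.01 and 1.32 FPKM in vehicle libraries. Its log2 fold change was 0.0025, with a 95% interval of -0.47 to 0.47. FAN1, a nuclease that binds ubiquitinated FANCD2, was under the filter, at 1.03 and 0.816 FPKM in UM-164 libraries and 1.01 and 0.973 FPKM in vehicle libraries.

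The 3 genes of structure-selective nucleases each lay below vehicle in both UM-164 libraries, as did 25.5% of all tested genes. EME1, a partner with which MUS81 cuts joined DNA molecules, had 5.04 and 4.16 FPKM in UM-164 libraries, against 6.24 and 6.70 FPKM in vehicle libraries. MUS81 had 6.33 and 6.31 FPKM in UM-164 libraries, against 7.73 and 8.76 FPKM in vehicle libraries. SLX4, a scaffold for several nucleases, had 1.93 and 1.81 FPKM in UM-164 libraries, against 1.96 and 2.44 FPKM in vehicle libraries. The log2 fold changes were -0.46, -0.36 and -0.18, with adjusted p = 0.172, 0.189 and 0.574 from limma. EME1 lies opposite LRRC59 over 16.4% of its exon bases and MUS81 opposite CFL1 over 14.1%, and these neighbours had log2 fold changes of -0.46 and 0.09. LRRC59 had means of 64.5 FPKM in UM-164 libraries and 88.7 FPKM in vehicle libraries, and CFL1 192 and 189 FPKM. Whether counting used strand is not stated, so EME1 and MUS81 are uncertain too.

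Of the checkpoint kinases, which signal DNA damage to the cell cycle, ATM and ATR were under the filter. ATM had 0.160 and 0.308 FPKM in UM-164 libraries, against 0.127 and 0.173 FPKM in vehicle libraries. ATR had 0.516 and 0.445 FPKM in UM-164 libraries, against 0.276 and 0.487 FPKM in vehicle libraries. Both overlapped between groups. CHEK1, the kinase that ATR activates, had 4.11 and 2.78 FPKM in UM-164 libraries, against 4.83 and 3.59 FPKM in vehicle libraries, and its replicates differed more than its group means did. CHEK2, the kinase that ATM activates, had 3.95 and 3.88 FPKM in UM-164 libraries, against 4.27 and 4.94 FPKM in vehicle libraries. Their log2 fold changes were -0.26 and -0.21, with adjusted p = 0.564 and 0.427 from limma.

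The 7 members under the filter were not tested. Their log2 differences were below 0 in 2 and above 0 in 5, and MRE11 was the one whose groups did not overlap. The longest listed transcripts of ATM and BRCA2, at 13147 and 11986 bases, are the longest of the 37 genes. Over the 30 tested members, Spearman's rho between the log2 fold change and the length of the longest listed transcript was 0.17, and it was -0.38 with the GC content of that transcript. Over the 11473 of all tested genes with a length the values were -0.08 and -0.09. Genes share the same 4 libraries and are not replicates, so these are descriptions, and the part of length or GC content in the fold changes was not tested.

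At an unadjusted p under 0.05 from limma, the related repair lists had shares of lower genes near the 10.6% of all tested genes. Of all tested genes 9.47% were higher at that threshold. A log2 fold change below 0 was more frequent in these lists than among all tested genes (48.1%). It was seen in 63.6% of further recombination, 73.3% of further Fanconi, 61.9% of break signalling and 90% of end joining genes. Genes whose groups did not overlap, with UM-164 lower, made up 45.5%, 53.3%, 33.3% and 40% in that order (background 25.5%). Of 22 tested further recombination genes 0 were called in either direction, and 0 were higher and 2 (9.09%) lower at an unadjusted p under 0.05 from limma, RPA2 among them. Their median log2 fold change was -0.09. RPA2, a subunit of the protein that coats single-stranded DNA, had a mean of 44.0 ± 0.413 FPKM in UM-164 libraries and 53.5 ± 1.04 FPKM in vehicle libraries (SD, n = 2 each). Of 15 further Fanconi genes 0 were called, 1 (6.67%) was lower at an unadjusted p under 0.05, and the median was -0.22. That gene was RFWD3, a ubiquitin ligase, for which limma gave a log2 fold change of -0.50 with adjusted p = 0.101. Of 21 genes of break signalling 0 were called, 1 was higher and 3 (14.3%) lower at an unadjusted p under 0.05, and the median was -0.09. H2AX, the histone variant marked at breaks, had 88.6 and 82.3 FPKM in UM-164 libraries, against 143 and 125 FPKM in vehicle libraries. It had the smallest p of that list, and limma gave a log2 fold change of -0.65 with adjusted p = 0.0603. Of 10 genes of end joining, the route that seals breaks without a template, 0 were called, 1 (10%) was lower at an unadjusted p under 0.05, and the median was -0.05. XRCC6, the Ku70 gene, was that gene, at -0.25.

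Genes that mark DNA copying and mitosis had lower medians than the repair genes. Both lists were chosen with earlier results of these data known. Of 30 S phase and replication genes 0 were called, but 21 were lower at an unadjusted p under 0.05 from limma and all 30 lay below vehicle in both UM-164 libraries (background 10.6% and 25.5%). Their median log2 fold change was -0.47. E2F1, a factor that drives S phase genes, had a mean of 65.7 ± 0.152 FPKM in UM-164 libraries and 98.3 ± 7.16 FPKM in vehicle libraries (SD, n = 2 each). Its adjusted p was 0.0600 from limma, and the lowest of the S phase list was 0.0581. Of 22 genes of G2 and mitosis 5 were called lower and 0 higher (background 0.860% and 0.452%), with a median of -0.44. These were UBE2C, PLK1, AURKA, MYBL2 and TPX2, at log2 fold changes of -0.92, -0.76, -0.66, -0.74 and -0.72. These lists had lower values alongside the repair genes, and their part in the values of the repair genes was not tested.

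**Figure D4:**
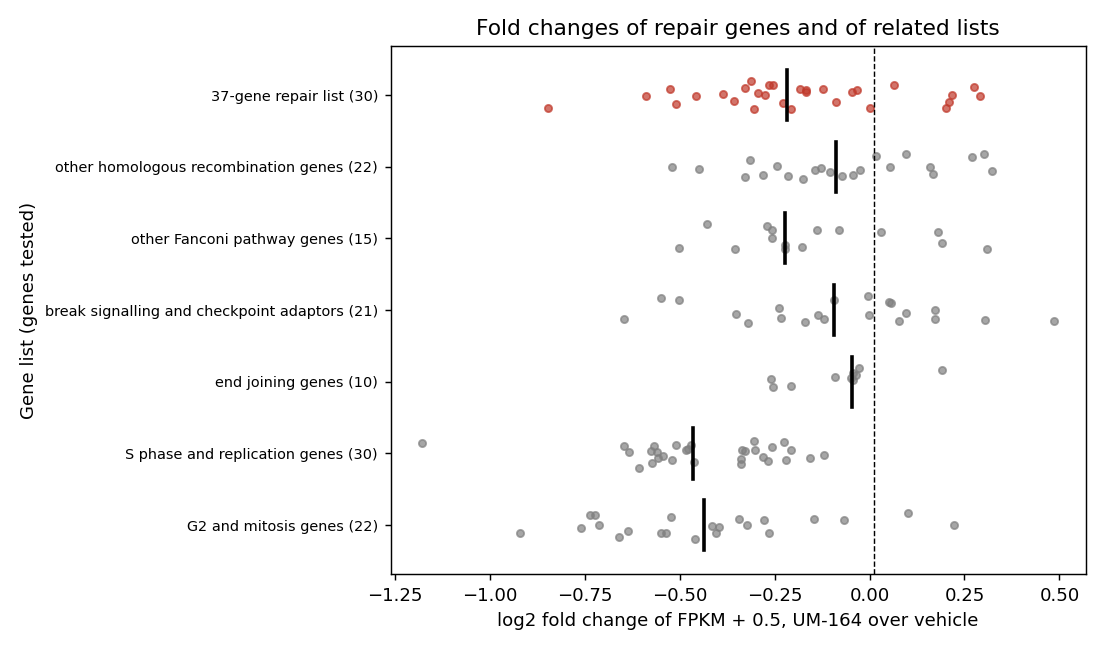
Log2 fold change of FPKM + 0.5 in UM-164 over vehicle libraries for each tested gene of the repair list and of 6 related lists, with a black bar at each list's median and a dashed line at the median of all 11516 tested genes. The medians were -0.22 for the repair list, -0.09, -0.22, -0.09 and -0.05 for the other repair lists, -0.47 for S phase and replication and -0.44 for G2 and mitosis.

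The glioma and glial markers had 7 of 9 genes at a mean of at least 1 FPKM, and their sum was 1087 to 1204 FPKM in UM-164 libraries and 1013 to 1146 FPKM in vehicle libraries. Within that sum the genes differed in direction. S100B and FABP7, both glial genes, were called higher in UM-164 libraries, at log2 fold changes of 0.79 and 1.25 (adjusted p = 0.0326 and 0.0159 from limma). The other 5 were not called, and their log2 fold changes were 0.97 for OLIG2, 0.04 for CD44, -0.21 for SOX2, -0.44 for NES and -0.53 for VIM. GFAP, a marker of mature astrocytes, was at 0.101 and 0.0487 FPKM in UM-164 libraries and 0.120 and 0.102 FPKM in vehicle libraries. Of 5 immune markers CD68 alone reached 1 FPKM, and the list summed to 17.3 to 20.5 FPKM in UM-164 libraries and 16.8 to 18.6 FPKM in vehicle libraries. Of 4 neuronal markers SNAP25 alone did, with sums of 4.41 to 4.67 FPKM in UM-164 libraries and 3.44 to 4.22 FPKM in vehicle libraries. Of 4 endothelial markers 0 did, with sums of 0.528 to 0.722 FPKM in UM-164 libraries and 0.266 to 0.365 FPKM in vehicle libraries. The part of these markers in the values of the repair genes was not tested. Genes with a protein-coding transcript took 81.7% to 83.4% of the summed FPKM in UM-164 libraries, against 89.7% to 90.1% in vehicle libraries. Rescaling these genes to one sum gave the tested members a median log2 fold change of -0.24, with 24 below 0.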

How the data were processed

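RNA of LN229 cells given UM-164 or vehicle was sequenced in 2 libraries each. The authors deposited FPKM per gene and library. The labels name cutadapt 1.9, FastQC and GRCh38, and the series text names HISAT2 and Ensembl release 101. Which program gave the FPKM is not stated in the labels or methods. The authors' own fold changes and p-values in the table were not used. The study's methods name DESeq2 for its comparison, which FPKM do not allow here.

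Log2(FPKM + 0.5) of genes with a mean of at least 1 FPKM was fitted with limma 3.58.1 in R 4.3.3 (variance trend, two-sided, Benjamini-Hochberg adjustment over 11516 genes, threshold 0.05). The fit was also run on simulated data with known changes. There it called 0% of changes of 0.5 in log2 size and 38.9% of changes of 1, and 6.98% of its calls were false. Tables were made in Python 3.11.15 with pandas 2.3.3 and scipy 1.17.1. The depth of the libraries is unknown. Exon overlaps came from GENCODE v29 and promoters from RefSeq (GRCh38.p14). The members and lists were chosen with earlier results of these data known. Members were described with each library's value if they were among the 3 smallest p of their role or the 12 largest fold changes, and other members by values or counts. Of each related list up to 3 genes with the smallest p, or those called, were named. The partner ratios were chosen after the values were seen. Alternatives were pseudocounts of 0.1 and 1, no filter or a mean of at least 5 FPKM, 3 scalings, no trend, a replicate block and each library left out.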

Additional observations from a re-analysis of the deposited data

How the results depend on the processing

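No member passed an adjusted p of 0.05 from limma under any of the 13 alternatives, where the lowest was 0.0671 (UBE2T at a mean of at least 5 FPKM). With no filter on low values 3 genes of all tested were higher and 1 lower, and with no trend 22 and 28, and in both fits 1 member, FANCF, was higher at an unadjusted p under 0.05 from limma. At a mean of at least 5 FPKM 158 genes of all tested were lower, and of the 9 members left 5 were lower at an unadjusted p under 0.05 and 9 had a log2 fold change below 0, with a median of -0.33. With single libraries left out, 4 to 45 genes of all tested were higher (4 and 6 without vehicle replicates 1 and 2, 31 without UM-164 replicate 2) and 0 to 70 lower (0 without either vehicle replicate, 53 without UM-164 replicate 2), and 4 to 9 members were lower at an unadjusted p under 0.05. That count was 4 without vehicle replicate 2, without UM-164 replicate 1 or without UM-164 replicate 2, and each such fit takes the spread of the single remaining library from the other group. The members' median then ran from -0.30 to -0.15. BRIP1 had a log2 fold change of -0.0021 by median-ratio scaling, -0.014 with protein-coding genes rescaled and -0.078 by quantile normalization, and -0.13 to 0.14 with single libraries left out, where PALB2 ran from -0.034 to 0.17. With the replicate number as a block 57 genes of all tested were higher and 107 lower, and 7 members were lower at an unadjusted p under 0.05. The numbers gave no sign of pairing (r = -0.06 over 11516 genes between the replicate differences of the groups). The cause of these shifts was not tested.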
